A study of Homo sapiens with 4 samples.

Results

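The 33 genes described here encode enzymes that use α-ketoglutarate (αKG) and oxygen to remove methyl groups from histones and nucleic acids or to add hydroxyl groups to proteins. They were chosen by symbol, and each matched 1 of the 36601 genes in the count matrices of both capture runs. By role they fall into 4 H3K36 and H3K4 demethylases, 6 H3K9 demethylases, 3 H3K27 and PHD-finger demethylases, 5 JmjC-domain hydroxylases, 3 HIF prolyl hydroxylases, 7 hydroxylases of collagen and of the endoplasmic reticulum (ER), 4 nucleic acid demethylases of the AlkB family and 1 prolyl hydroxylase of a ribosomal protein. The samples were H9 human embryonic stem cells, 1 established line in the naive state of pluripotency, grown into aggregates or into blastoids, which are stem cell models of the blastocyst with an outer trophectoderm-like layer around epiblast-like cells. The study asked what αKG does to the emergence of trophectoderm, and its single-cell arms carried either 4 mM dimethyl-αKG (dm-αKG), a cell-permeable ester of αKG, or no added compound (0 mM).

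The 6 arms were blastoids at 4 mM and at 0 mM in each of 2 capture runs, and aggregates at 4 mM and at 0 mM in run 1 alone. Aggregates were taken at 40 h, the end of the exposure, and blastoids at 120 h, after a period without the compound. All arms shared the cell line, aggregation followed by PALLY medium, which holds inhibitors of MEK, TGF-β signalling and ROCK together with LIF and lysophosphatidic acid, and a low oxygen setting, with treatment medium equilibrated at 5% oxygen. Blastoids, but not aggregates, were then moved to LY medium, which keeps only lysophosphatidic acid and the ROCK inhibitor. Blastoids were picked for a single cavity, so each blastoid arm holds structures selected for their shape. An arm is 1 hashtagged culture that pools many structures. Per the study's methods the blastoids of the capture runs came from independent experiments, and the aggregates from a single one. The arm of each cell was read from the hashtag antibody with which it was stained.

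αKG-dependent dioxygenases couple the splitting of oxygen and αKG into carbon dioxide and succinate to the oxidation of their substrate. Jumonji histone demethylases remove methyl marks from histone H3 in this way, AlkB-family enzymes do so on RNA and DNA, and the EGLN enzymes hydroxylate HIFα proteins and so mark them for destruction when oxygen is present. Collagen prolyl and lysyl hydroxylases act in the ER on newly made collagen, and genes of several of these enzymes, EGLN3, P4HA1, P4HA2, PLOD2 and KDM3A among them, are themselves known targets of HIF. The values below are transcript counts and carry no measure of enzyme activity.

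After filtering, 12647 cells remained. Between 426 and 4974 cells came from each blastoid arm, and 1054 and 1201 cells came from the aggregates at 4 mM and at 0 mM. Blastoid cells were called TE-like where the summed unique molecular identifiers (UMIs) of KRT8, KRT18, GATA3 and CLDN4 exceeded those of POU5F1, DPPA5, DPPA4, L1TD1 and TDGF1, and Epi-like otherwise. TE-like cells were few, 49 and 170 at 4 mM in runs 1 and 2 and 18 and 181 at 0 mM, and between 5 and 41 cells of a blastoid arm lay within 2-fold of the boundary. The paper reports that dissociation lost fragile trophectoderm cells out of proportion. These numbers therefore do not give the make-up of the blastoids. Markers that the rule did not use bore out the names. Summed trophectoderm markers stood at 1056 to 2045 CPM (UMIs of a gene scaled to a total of 1000000) in TE-like against 48.4 to 52.4 CPM in Epi-like arms, with 9 of 9 tested markers higher in TE-like cells, while 7 of 8 epiblast markers were lower and DNMT3L was higher (log2 0.46). UMIs per sum of cells ranged from 456611 to 2981693 in TE-like arms, from 11818706 to 81804868 in Epi-like arms and from 30770380 to 36113833 in aggregates, so that single members in the TE-like cells of run 1 at 0 mM rest on 0 or 1 UMI. That arm also held 65.7 CPM of primitive endoderm markers (30 UMIs), against 1.68 to 18.3 CPM in the other TE-like arms.

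Promoter windows of 4 members, picked by hand, are shown. P4HA1, P4HA2 and PLOD2 were the ER and collagen hydroxylases counted as higher at 4 mM in aggregates. EGLN3 was the member with the largest difference between TE-like and Epi-like cells. KDM6B, EGLN1, KDM3A and KDM4B, also higher at 4 mM in aggregates, are not shown. Each window of 300 bases lies around the RefSeq start of the gene (GRCh38.p14), mostly upstream of it, is written 5′ to 3′ on the strand of the gene, and has in capitals the HIF response core, ACGTG or GCGTG, on either strand. The reverse complements CACGT and CACGC are therefore also in capitals where they occur, and ACGTG overlaps the E-box CACGTG.
P4HA1, chr10:73096817-73097116, minus strand: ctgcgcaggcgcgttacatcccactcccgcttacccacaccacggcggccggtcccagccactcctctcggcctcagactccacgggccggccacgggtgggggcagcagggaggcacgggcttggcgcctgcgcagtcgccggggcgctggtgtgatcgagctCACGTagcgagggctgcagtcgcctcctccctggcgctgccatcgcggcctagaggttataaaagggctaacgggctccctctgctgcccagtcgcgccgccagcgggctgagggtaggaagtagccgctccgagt
P4HA2, chr5:132227042-132227341, minus strand: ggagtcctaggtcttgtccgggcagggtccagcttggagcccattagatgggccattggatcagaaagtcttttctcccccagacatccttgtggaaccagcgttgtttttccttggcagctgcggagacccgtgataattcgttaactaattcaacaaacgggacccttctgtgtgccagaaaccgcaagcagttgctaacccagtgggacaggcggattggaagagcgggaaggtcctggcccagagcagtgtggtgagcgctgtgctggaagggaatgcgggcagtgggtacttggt
PLOD2, chr3:146161135-146161434, minus strand: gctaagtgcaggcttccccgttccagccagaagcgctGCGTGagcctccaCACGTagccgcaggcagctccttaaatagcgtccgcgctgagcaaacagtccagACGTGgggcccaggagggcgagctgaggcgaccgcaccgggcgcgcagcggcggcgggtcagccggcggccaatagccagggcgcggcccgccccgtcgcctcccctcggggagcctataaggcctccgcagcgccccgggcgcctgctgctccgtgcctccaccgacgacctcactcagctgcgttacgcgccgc
EGLN3, chr14:33951025-33951324, minus strand: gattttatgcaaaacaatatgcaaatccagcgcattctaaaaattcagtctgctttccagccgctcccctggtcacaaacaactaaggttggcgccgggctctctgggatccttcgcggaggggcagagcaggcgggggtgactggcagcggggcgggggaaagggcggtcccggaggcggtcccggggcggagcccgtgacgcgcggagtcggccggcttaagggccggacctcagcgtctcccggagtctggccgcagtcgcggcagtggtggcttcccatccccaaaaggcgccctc
P4HA1 held 1 match and PLOD2 held 3, and these letters were not in the P4HA2 and EGLN3 windows. The P4HA2, PLOD2 and EGLN3 windows lie inside the annotated spans of their genes, so any start further upstream was not scanned. A match occurred in 20 of the 29 members found in the promoter table (69.0%) and in 48.4% of 27305 promoter windows of the same length. With ACGTG alone the shares were 27.6% and 21.6%. A match is a description of the letters only.

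The comparison of TE-like with Epi-like cells asks which of these enzymes differ between the 2 cell classes of a blastoid. EGLN3 was the one member far higher in TE-like cells, JMJD6 was moderately higher, and 17 members were lower. Lower calls took in 6 of 7 ER and collagen hydroxylases, 4 of 6 H3K9 demethylases and 2 of 3 H3K27 and PHD-finger demethylases, and no difference between role groups was tested. By the quasi-likelihood test of edgeR, adjusted over all genes by the Benjamini-Hochberg method, 2 of 32 tested members passed the threshold of 0.05 as higher and 17 as lower, 59.4% of them, against 49.0% of all 12352 genes tested (23.1% higher and 25.9% lower). The median log2 fold change of the members was −0.46, beside −0.04 for all genes. KDM8 was too low to be tested. The summed level of the members was 808 and 797 CPM in TE-like cells at 4 mM (run 1, then run 2, as throughout) and 683 and 866 CPM at 0 mM, against 997 and 1010 CPM at 4 mM and 946 and 970 CPM at 0 mM in Epi-like cells. The TE-like range lay wholly below the Epi-like range on this scale of plain totals, on which the median of all genes was also lower in TE-like cells (log2 −0.27).

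The fold changes depend on the scaling. edgeR's TMM factors were used, and plain library totals, an alternative chosen after seeing the data, moved the median of all genes from −0.04 to −0.27 and that of the members from −0.46 to −0.69. All genes then split into 1745 higher and 4731 lower calls, against 2857 and 3194 with TMM. The members split into 1 higher and 20 lower, with JMJD6 no longer passing and KDM5B (log2 −0.34), KDM3A (−0.63) and KDM4B (−0.49) now lower, so the differences are best read relative to the median gene.

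EGLN3, a prolyl hydroxylase of HIFα that is itself induced by HIF, was measured at 227 and 186 CPM in TE-like cells at 4 mM and at 199 and 181 CPM at 0 mM. Epi-like cells had 36.4 and 36.8 CPM at 4 mM and 42.3 and 43.2 CPM at 0 mM. Its lowest TE-like arm thus lay far above its highest Epi-like arm, and the mean was 198 ± 20.6 CPM in TE-like and 39.7 ± 3.56 CPM in Epi-like cells (SD, n = 4 arms each). The fold change was 5.82 (log2 2.54 ± 0.10, SE; edgeR adjusted p = 4.35e-12), and with plain totals it was log2 2.32. EGLN3 was the only member whose TE-like arms all lay above its Epi-like arms, a pattern found in 11.8% of all genes. The gene spans positions 33924227 to 34462774 of chromosome 14 on the minus strand (GRCh38), and the RefSeq promoter window shown above lies inside this span. EGLN1, the main oxygen sensor of the family, and EGLN2 did not pass the test (log2 −0.10 and −0.06). EGLN1 stood at 4.95 and 5.76 CPM in TE-like cells at 4 mM and 4.38 and 5.70 CPM at 0 mM, against 6.52 and 7.60 CPM at 4 mM and 7.45 and 6.34 CPM at 0 mM in Epi-like cells. Through EGLN3, the HIF prolyl hydroxylases summed to 255 and 216 CPM at 4 mM and 219 and 213 CPM at 0 mM in TE-like cells, against 74.6 to 76.6 CPM in Epi-like arms.

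**Figure D1:**
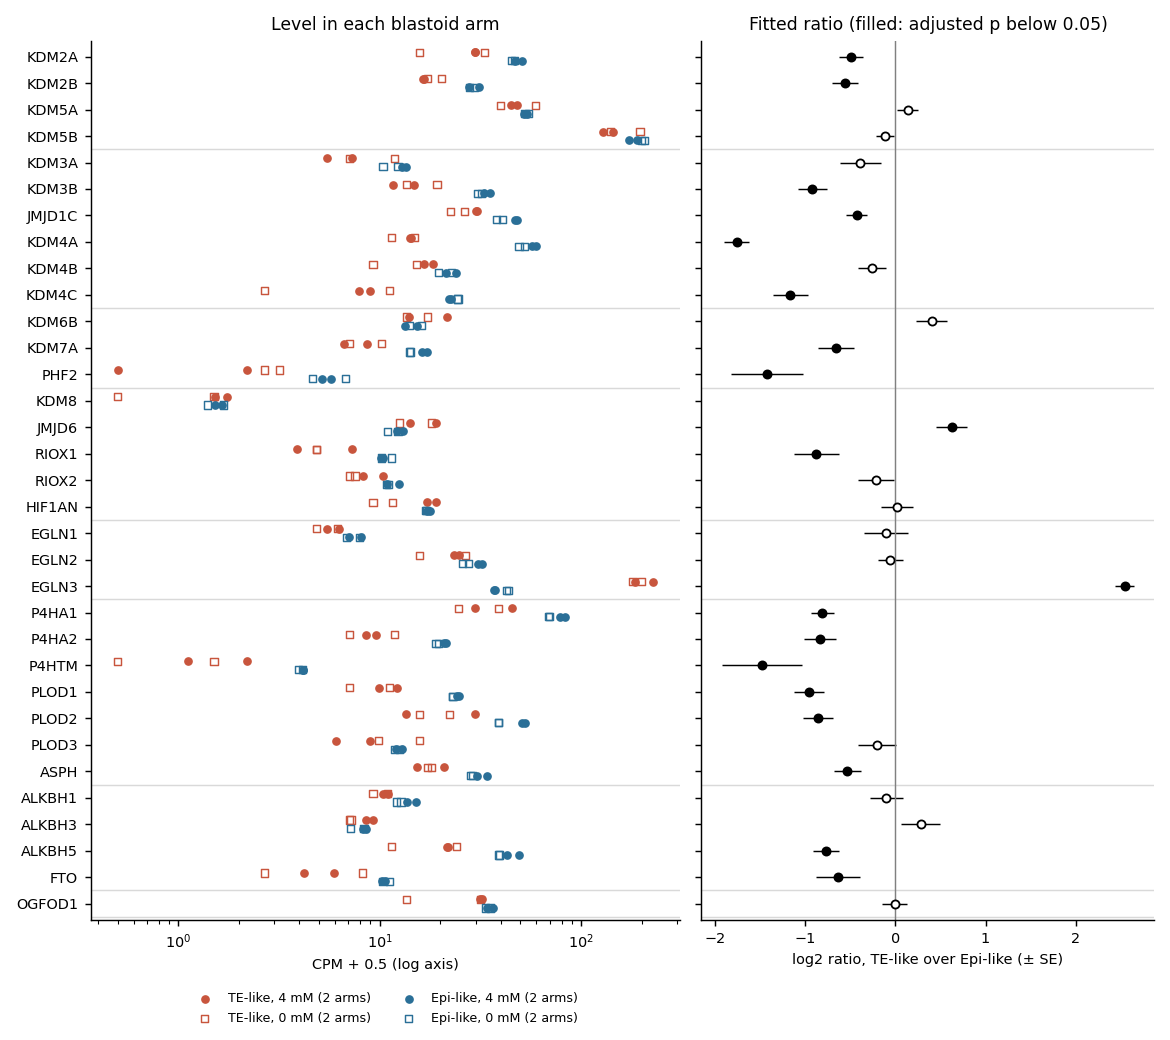
Left, level of each member in TE-like (red) and Epi-like (blue) cells as CPM + 0.5 on a log axis, with 1 point per arm, filled circles for 4 mM and open squares for 0 mM; right, the fitted log2 ratio of TE-like over Epi-like cells with its SE, filled where the adjusted p was below 0.05, and members ordered by role. The EGLN3 points of TE-like cells, at 181 to 227 CPM, stand apart from those of Epi-like cells at 36.4 to 43.2 CPM, and most points of the ER and collagen hydroxylases lie lower in TE-like cells.

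The ER and collagen hydroxylases summed to 83.0 and 123 CPM at 4 mM and 85.4 and 110 CPM at 0 mM in TE-like cells, against 223 and 224 CPM at 4 mM and 192 and 192 CPM at 0 mM in Epi-like cells. The 2 ranges were well apart, and 6 of the 7 members were lower. P4HA1, a catalytic subunit of collagen prolyl 4-hydroxylase, had 29.1 and 45.1 CPM in TE-like cells at 4 mM and 24.1 and 38.6 CPM at 0 mM, against 77.9 and 82.3 CPM at 4 mM and 68.6 and 69.1 CPM at 0 mM in Epi-like cells. Every TE-like arm was below every Epi-like arm, and P4HA1 was 1.75-fold lower (log2 −0.81 ± 0.13, SE; edgeR adjusted p = 5.69e-05). Its paralogue P4HA2 had 8.05 and 9.15 CPM at 4 mM and 6.57 and 11.4 CPM at 0 mM in TE-like cells, against 20.5 and 20.9 CPM at 4 mM and 18.5 and 19.1 CPM at 0 mM in Epi-like cells, also without overlap, and was 1.79-fold lower (log2 −0.84 ± 0.18; edgeR adjusted p = 9.71e-04).

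Lysyl hydroxylases of collagen were lower too. PLOD1 had 11.8 and 9.49 CPM at 4 mM and 6.57 and 10.7 CPM at 0 mM in TE-like cells, against 24.3 and 23.7 CPM at 4 mM and 22.4 and 22.6 CPM at 0 mM in Epi-like cells. It was 1.94-fold lower (log2 −0.96 ± 0.17; edgeR adjusted p = 1.54e-04), and the arms of the classes did not overlap. PLOD2, which hydroxylates the telopeptides that set collagen cross-links, had 13.0 and 29.1 CPM at 4 mM and 15.3 and 21.8 CPM at 0 mM in TE-like cells, against 50.6 and 52.0 CPM at 4 mM and 38.6 and 38.3 CPM at 0 mM in Epi-like cells. It was 1.81-fold lower (log2 −0.85 ± 0.17; edgeR adjusted p = 4.28e-04), with its highest TE-like value at 4 mM in run 2. ASPH, which hydroxylates EGF-like domains in the ER, had 14.9 and 20.3 CPM at 4 mM and 17.5 and 16.8 CPM at 0 mM in TE-like cells, against 33.5 and 30.1 CPM at 4 mM and 28.5 and 27.7 CPM at 0 mM in Epi-like cells. It was 1.45-fold lower (log2 −0.53 ± 0.15; edgeR adjusted p = 0.00671), and its arms did not overlap. P4HTM, an ER-membrane prolyl hydroxylase, was low throughout, with 0.619 and 1.69 CPM at 4 mM and 0 and 1.01 CPM at 0 mM in TE-like cells, against 3.65 and 3.68 CPM at 4 mM and 3.47 and 3.64 CPM at 0 mM in Epi-like cells. It was called lower (log2 −1.47 ± 0.45; edgeR adjusted p = 0.0115), although its arm at 0 UMIs allows up to 6.57 CPM (3 counts in that arm). PLOD3 did not pass the test (log2 −0.20), and its TE-like and Epi-like arms overlapped.

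H3K9 demethylases summed to 86.1 and 88.1 CPM at 4 mM and 63.5 and 95.9 CPM at 0 mM in TE-like cells, against 196 and 194 CPM at 4 mM and 169 and 182 CPM at 0 mM in Epi-like cells, and 4 of 6 were lower. KDM4A, which removes trimethylation of H3K9 and H3K36, had 13.6 and 13.9 CPM at 4 mM and 11.0 and 14.4 CPM at 0 mM in TE-like cells, against 59.0 and 56.6 CPM at 4 mM and 48.7 and 52.0 CPM at 0 mM in Epi-like cells. This was the largest decrease of any tested member, 3.39-fold (log2 −1.76 ± 0.14; edgeR adjusted p = 1.78e-08), and the arms of the 2 classes were far apart. KDM4A lies on the plus strand of chromosome 1 at 43650149 to 43705518 (GRCh38). KDM4C, of the same subfamily, had 7.43 and 8.47 CPM at 4 mM and 2.19 and 10.7 CPM at 0 mM in TE-like cells, against 22.1 and 21.5 CPM at 4 mM and 24.0 and 23.8 CPM at 0 mM in Epi-like cells. It was 2.24-fold lower (log2 −1.17 ± 0.19; edgeR adjusted p = 1.07e-04), and its lowest arm rests on 1 UMI. KDM3B, which acts on mono- and dimethylated H3K9, had 14.2 and 11.2 CPM at 4 mM and 13.1 and 18.8 CPM at 0 mM in TE-like cells, against 34.9 and 32.5 CPM at 4 mM and 30.2 and 31.6 CPM at 0 mM in Epi-like cells. It was 1.89-fold lower (log2 −0.92 ± 0.16; edgeR adjusted p = 1.82e-04), with the classes apart. JMJD1C, its paralogue, had 29.7 and 29.8 CPM at 4 mM and 21.9 and 25.8 CPM at 0 mM in TE-like cells, against 46.3 and 47.3 CPM at 4 mM and 37.5 and 40.3 CPM at 0 mM in Epi-like cells. It was 1.35-fold lower (log2 −0.43 ± 0.12; edgeR adjusted p = 0.00651), again with no overlap. KDM3A (log2 −0.39) and KDM4B (−0.26) did not pass with TMM scaling and all arms. Without the 0 mM arm of run 2, KDM3A passed as lower (log2 −0.80, edgeR adjusted p = 0.0245).

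Among the H3K36 and H3K4 demethylases, KDM2A and KDM2B, which bind unmethylated CpG islands, were lower and the KDM5 pair was not called. KDM2A had 29.1 and 29.1 CPM at 4 mM and 15.3 and 32.5 CPM at 0 mM in TE-like cells, against 46.7 and 50.4 CPM at 4 mM and 44.8 and 46.2 CPM at 0 mM in Epi-like cells (1.40-fold lower, log2 −0.49 ± 0.13; edgeR adjusted p = 0.00616). KDM2B had 16.1 and 15.9 CPM at 4 mM and 19.7 and 16.8 CPM at 0 mM in TE-like cells, against 30.7 and 27.2 CPM at 4 mM and 27.5 and 29.0 CPM at 0 mM in Epi-like cells. It was 1.47-fold lower (log2 −0.56 ± 0.14; edgeR adjusted p = 0.00364), and for neither gene did the classes overlap. KDM5B, an H3K4 demethylase and the member of this group with the highest CPM, had 144 and 128 CPM at 4 mM and 140 and 196 CPM at 0 mM in TE-like cells against 173 to 207 CPM in Epi-like arms, and its arms overlapped (log2 −0.11). KDM5A had a log2 fold change of 0.14 with TMM that turned negative with plain totals, and the sign also varied between arms.

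Of the H3K27 and PHD-finger demethylases, KDM7A and PHF2 were lower. KDM7A, which acts on H3K9 and H3K27, had 6.19 and 8.13 CPM at 4 mM and 6.57 and 9.73 CPM at 0 mM in TE-like cells, against 16.7 and 15.8 CPM at 4 mM and 13.6 and 13.8 CPM at 0 mM in Epi-like cells. Its arms did not overlap, and it was 1.57-fold lower (log2 −0.65 ± 0.20; edgeR adjusted p = 0.0126). PHF2, an H3K9 demethylase of the same family, had 0 and 1.69 CPM at 4 mM and 2.19 and 2.68 CPM at 0 mM in TE-like cells, against 4.67 and 5.23 CPM at 4 mM and 4.15 and 6.27 CPM at 0 mM in Epi-like cells. It was 2.67-fold lower (log2 −1.42 ± 0.40; edgeR adjusted p = 0.00779) but rests on few reads, and its arm at 0 UMIs allows up to 1.86 CPM (3 counts). KDM6B, which removes H3K27 trimethylation, was not called (log2 0.40 ± 0.17; edgeR adjusted p = 0.0654), although it passed as higher with all singlets (0.0412) or with arm left out of the model (0.0388), with 21.1 and 13.6 CPM at 4 mM and 13.1 and 16.8 CPM at 0 mM in TE-like cells against 12.8 to 15.7 CPM in Epi-like arms.

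The JmjC hydroxylases moved in both directions. JMJD6, a lysyl hydroxylase of splicing factors, had 13.6 and 18.6 CPM at 4 mM and 17.5 and 12.1 CPM at 0 mM in TE-like cells, against 12.6 and 11.6 CPM at 4 mM and 11.8 and 10.4 CPM at 0 mM in Epi-like cells. Its 1.54-fold increase (log2 0.63 ± 0.17; edgeR adjusted p = 0.00689) was lost with plain totals (log2 0.39, edgeR adjusted p = 0.0657) and without the 4 mM arm of run 2, and the arms of the classes overlapped. RIOX1, a histidyl hydroxylase of a ribosomal protein, had 6.81 and 3.39 CPM at 4 mM and 4.38 and 4.36 CPM at 0 mM in TE-like cells, against 9.89 and 9.67 CPM at 4 mM and 11.0 and 9.68 CPM at 0 mM in Epi-like cells. It was 1.84-fold lower (log2 −0.88 ± 0.25; edgeR adjusted p = 0.00805), without overlap. HIF1AN, the asparaginyl hydroxylase that limits HIFα transactivation, did not differ detectably (log2 0.02), with 18.6 and 16.6 CPM at 4 mM and 8.76 and 11.1 CPM at 0 mM in TE-like cells against 16.3 to 17.2 CPM in Epi-like arms, and its sign turned with plain totals. RIOX2, which modifies another ribosomal protein, was not called (log2 −0.22).

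The AlkB family included the demethylases of m6A, the methyl mark on adenosine of messenger RNA. ALKBH5 had 21.1 and 21.3 CPM at 4 mM and 11.0 and 23.5 CPM at 0 mM in TE-like cells, against 48.6 and 42.5 CPM at 4 mM and 39.0 and 38.3 CPM at 0 mM in Epi-like cells, 1.70-fold lower (log2 −0.77 ± 0.15; edgeR adjusted p = 3.62e-04). FTO had 3.72 and 5.42 CPM at 4 mM and 2.19 and 7.71 CPM at 0 mM in TE-like cells, against 9.76 and 10.1 CPM at 4 mM and 9.90 and 10.7 CPM at 0 mM in Epi-like cells. It was 1.55-fold lower (log2 −0.64 ± 0.24; edgeR adjusted p = 0.0398), the largest adjusted p among these calls, and was lost with DESeq2 (adjusted p = 0.0553). The FTO call was kept in 7 of 12 alternatives. It was also lost without the 0 mM arm of run 1 (edgeR adjusted p = 0.0700) and without the 4 mM arm of run 1 (0.111). ALKBH1 (log2 −0.10) and ALKBH3 (0.28) were not called, nor was OGFOD1, the prolyl hydroxylase of ribosomal protein RPS23 (log2 −0.01). Across the 33 members, 22 had all TE-like arms below all Epi-like arms, a pattern found in 35.5% of all genes. Leaving out the 4 mM arm of run 2 reduced the lower calls to 11, without KDM7A, PHF2, JMJD1C, KDM2A, RIOX1 and FTO. Lower calls over all genes fell as well, from 3194 of 12352 genes tested to 2353 of 12414.

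The dose comparison in Epi-like cells asks whether these genes differ in the epiblast-like cells of 120 h blastoids after an early exposure to dm-αKG. PLOD2 was the member with the largest called difference. JMJD1C, P4HA1, ALKBH5 and EGLN2 were also higher at 4 mM, and EGLN3 was lower. The largest of these changes, that of PLOD2, was 1.34-fold. By the same edgeR test, with run in the model, 6 of 33 members passed (18.2%), against 8.69% of all 17014 genes tested. The 5 higher and 1 lower calls stand beside 5.2% and 3.49% of all genes in each direction. The median log2 fold change was 0.10 for the members and −0.01 for all genes, and 25 members had a positive and 8 a negative estimate. The 4 mM blastoid arms kept more of their hashtag singlets, 73.1% and 89.0% against 44.8% and 81.0% at 0 mM, and before filtering the median mitochondrial share of Epi-like singlets was 4.62% and 4.36% against 11.3% and 4.38%. After filtering it was 4.33% and 4.20% against 4.40% and 4.02%, and with all singlets kept 6 members were higher and 2 lower. The model has 4 arms and 1 residual degree of freedom. No member passed without the run in the model (PLOD2 had edgeR adjusted p = 0.114), and with DESeq2 PLOD2 alone did.

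PLOD2 had 50.6 and 52.0 CPM in Epi-like cells at 4 mM, against 38.6 and 38.3 CPM at 0 mM. Both 4 mM arms lay above both 0 mM arms (log2 0.42 ± 0.07; edgeR adjusted p = 5.14e-05), and the within-run log2 ratios were 0.39 and 0.43. P4HA1 had 77.9 and 82.3 CPM at 4 mM, against 68.6 and 69.1 CPM at 0 mM (log2 0.22 ± 0.06; edgeR adjusted p = 0.0240). All 7 ER and collagen hydroxylases had positive estimates, and their sum was 223 and 224 CPM at 4 mM against 192 and 192 CPM at 0 mM. The remaining 5 of them did not pass, P4HA2 among them at 20.5 and 20.9 CPM against 18.5 and 19.1 CPM. Their estimates were log2 0.16 ± 0.07 for ASPH, 0.14 ± 0.08 for P4HA2 and 0.09 ± 0.08 for PLOD1. P4HTM had 0.04 ± 0.14 and PLOD3 0.04 ± 0.09. The share of positive estimates over all genes was not counted.

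EGLN3 fell, with 36.4 and 36.8 CPM at 4 mM against 42.3 and 43.2 CPM at 0 mM (log2 −0.22 ± 0.07; edgeR adjusted p = 0.0313). EGLN2, which like EGLN3 hydroxylates HIFα, had 31.9 and 30.2 CPM at 4 mM against 25.4 and 27.1 CPM at 0 mM (log2 0.22 ± 0.07; edgeR adjusted p = 0.0467). These opposite changes left the summed HIF prolyl hydroxylases at 74.8 and 74.6 CPM at 4 mM, against 75.1 and 76.6 CPM at 0 mM. EGLN1 had 6.52 and 7.60 CPM against 7.45 and 6.34 CPM, so that its sign was opposite in the 2 runs. EGLN2 no longer passed with plain totals (edgeR adjusted p = 0.0614).

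JMJD1C had 46.3 and 47.3 CPM at 4 mM, against 37.5 and 40.3 CPM at 0 mM (log2 0.26 ± 0.07; edgeR adjusted p = 0.0105). ALKBH5, the m6A demethylase, had 48.6 and 42.5 CPM at 4 mM, against 39.0 and 38.3 CPM at 0 mM (log2 0.22 ± 0.07; edgeR adjusted p = 0.0371). For both genes the lowest 4 mM arm was above the highest 0 mM arm. KDM4A (log2 0.18, edgeR adjusted p = 0.0756), KDM7A (0.23, 0.0889) and KDM5B (−0.16, 0.114) lay closest outside the threshold. KDM4A passed as higher and KDM5B as lower with all singlets and with the top hashtag, and KDM7A passed as higher with the top hashtag. KDM5B had 173 and 190 CPM at 4 mM against 198 and 207 CPM at 0 mM. The sign was opposite in the 2 runs for KDM2B, KDM5A, PHF2, KDM8, RIOX2 and EGLN1. The class-rule trophectoderm genes summed to 328 and 295 CPM at 4 mM against 232 and 228 CPM at 0 mM in Epi-like cells, with KRT8 and KRT18 higher (log2 0.43 and 0.44), CLDN4 lower (−0.71) and GATA3 not called (−0.37). Of 8 epiblast markers outside the rule, NANOG, SOX2 and KLF17 were higher (log2 0.40, 0.53 and 0.51) and 0 were lower, with DNMT3L (−0.16) and UTF1 (−0.08) among those not called. The part of these marker changes in the members' differences was not tested.

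**Figure D2:**
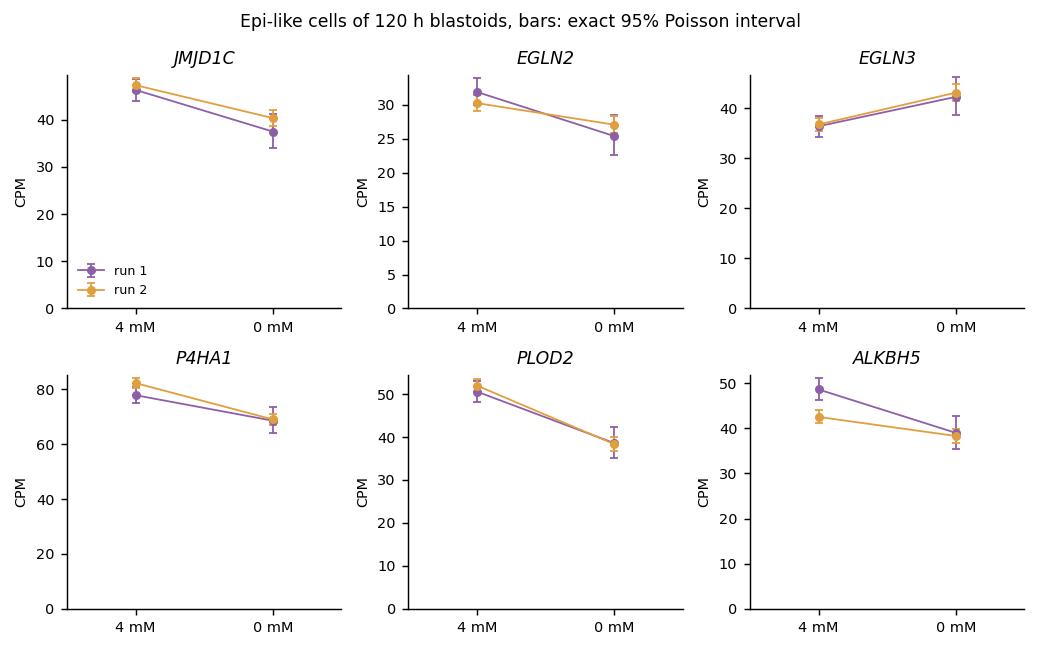
Level in CPM, by run, of the members that passed the dose test in Epi-like cells, with 1 point per arm, lines that join the doses of a run, and exact Poisson 95% intervals for counting error as bars. PLOD2 stands at 50.6 and 52.0 CPM at 4 mM and 38.6 and 38.3 CPM at 0 mM, and EGLN3 goes the other way, with 36.4 and 36.8 CPM at 4 mM and 42.3 and 43.2 CPM at 0 mM.

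The same comparison in TE-like cells, of 49 and 170 cells at 4 mM against 18 and 181 cells at 0 mM, gave no call. Of 30 tested members 0 passed edgeR's quasi-likelihood test, 1 had an unadjusted p under 0.05, and DESeq2 also called 0, while 1.44% of all 9104 genes tested passed with edgeR (0.648% higher and 0.791% lower). PHF2, KDM8 and P4HTM were too low to be tested. The member with the smallest p was KDM5B, at 144 and 128 CPM at 4 mM against 140 and 196 CPM at 0 mM (log2 −0.39 ± 0.17; edgeR unadjusted p = 0.0288, adjusted p = 0.430), and its sign was opposite in the 2 runs. HIF1AN had 18.6 and 16.6 CPM at 4 mM, with 8.76 and 11.1 CPM at 0 mM (log2 0.67 ± 0.33; edgeR adjusted p = 0.551). For 16 of the 30 members the sign differed between the runs, KDM2A, KDM5A, KDM3B, KDM4A, KDM4C, KDM6B, JMJD6, RIOX1, EGLN2, P4HA2, PLOD1, PLOD2, ASPH, ALKBH5 and FTO beside KDM5B. EGLN3 had 227 and 186 CPM at 4 mM against 199 and 181 CPM at 0 mM, higher at 4 mM in both runs but not past the test. The SE of the log2 fold change was 0.15 for EGLN3 and 0.29 for PLOD2 in TE-like cells, against 0.07 and 0.07 in Epi-like cells. Trophectoderm markers outside the class rule were higher at 4 mM in the same cells, 2045 and 1734 CPM against 1056 and 1208 CPM at 0 mM, with KRT19, KRT7 and HAND1 called (log2 0.89, 2.02 and 1.80).

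Whether the dose effect differed between TE-like and Epi-like cells was tested as an interaction. Of 32 members 0 passed with edgeR or with DESeq2, beside 0.774% of 13174 genes tested with edgeR (0.38% positive and 0.395% negative). An unadjusted p under 0.05 was reached by 2 members, EGLN3 (log2 0.37 ± 0.19; edgeR unadjusted p = 0.0454, adjusted p = 0.705) and KDM3A (log2 −0.95 ± 0.45; edgeR unadjusted p = 0.0335, adjusted p = 0.628). KDM3A had 4.95 and 6.78 CPM in TE-like cells at 4 mM and 6.57 and 11.4 CPM at 0 mM, and 12.4 and 13.1 CPM in Epi-like cells at 4 mM and 9.90 and 11.8 CPM at 0 mM. The class and dose comparisons use the same arms and are not independent of each other.

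**Figure D3:**
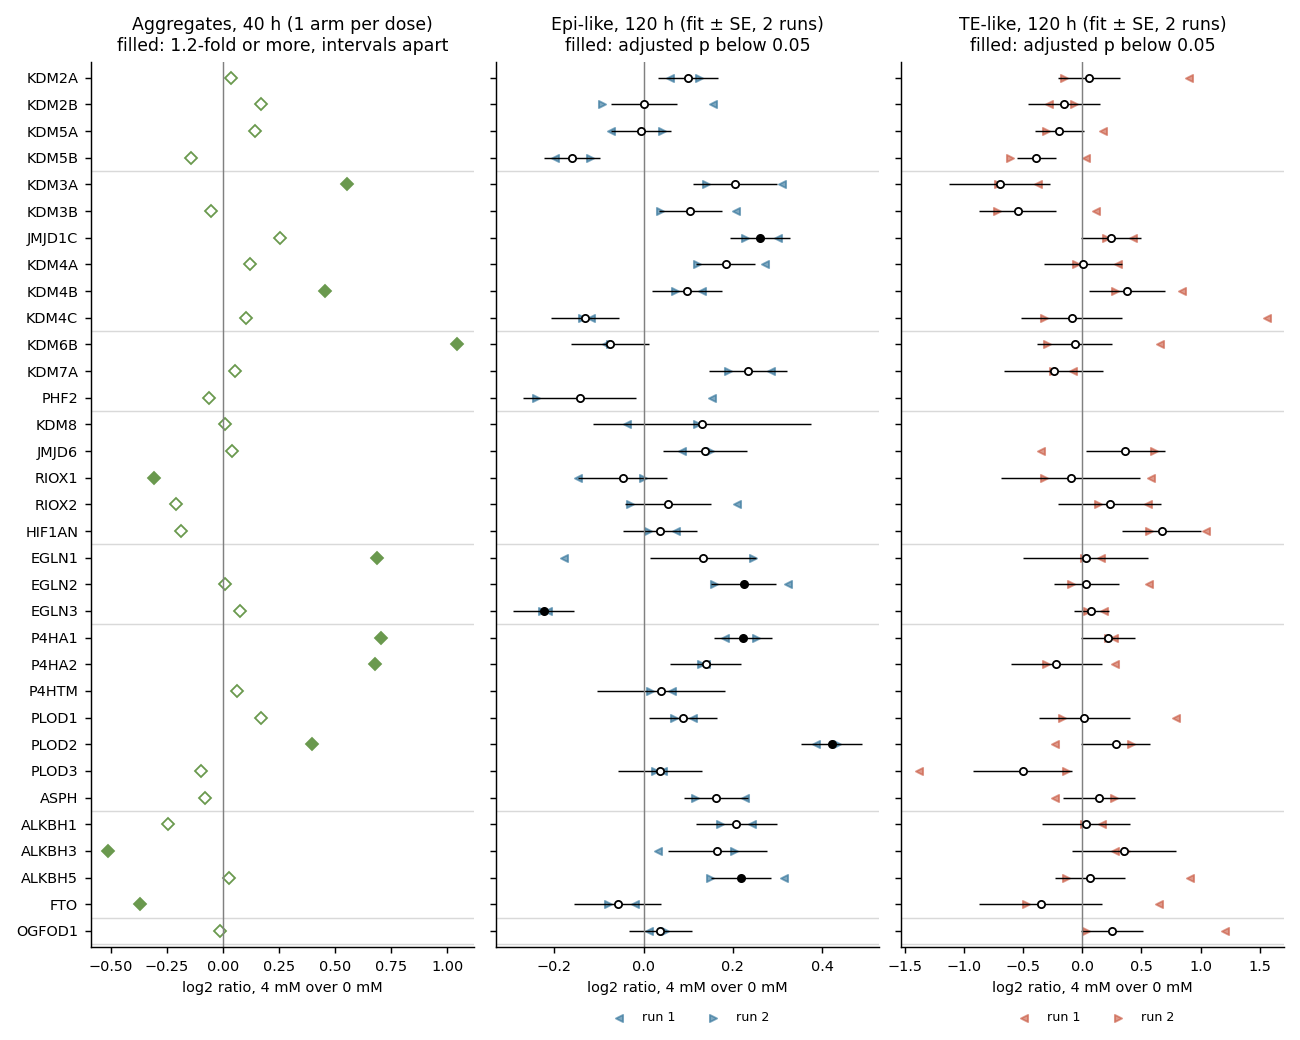
Log2 ratio of the 4 mM over the 0 mM level of each member in the dose comparisons, in 1 panel each for aggregates (diamonds), Epi-like cells and TE-like cells, with circles and bars for the fit and its SE, triangles for the ratio within each run, filled symbols for members called, and x scales that differ between panels. PHF2, KDM8 and P4HTM have no point in the TE-like panel, where the runs disagree in sign for 16 of 30 members, while in the Epi-like panel 25 of 33 estimates are positive.

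In aggregates, sampled at the end of the exposure, 1 arm per dose was available, so there is no replicate check and no p-value. A member was counted as different where it had at least 100 UMIs, a CPM ratio of at least 1.2 and exact Poisson 95% intervals that did not overlap, which cover counting error only. By this rule 7 of 32 members were higher and 3 lower at 4 mM, 31.2% of those measured, against 19.4% of 12195 genes (9.93% higher and 9.51% lower). The median log2 ratio was 0.05 for the members and 0.00 for all genes. KDM8, at 1.01 CPM at 4 mM and 0.997 CPM at 0 mM, had fewer than 100 UMIs. The 4 mM aggregates kept fewer of their hashtag singlets after filtering (55.7%, against 71.7% at 0 mM) and had a higher median mitochondrial share (5.16%, against 4.19%), and the part of these differences in the values was not tested.

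KDM6B, the H3K27 demethylase, had the largest ratio, with 20.8 CPM at 4 mM against 9.86 CPM at 0 mM (log2 1.04). It lies on the plus strand of chromosome 17 at 7834217 to 7854796 (GRCh38). In Epi-like cells it had 12.8 and 14.9 CPM at 4 mM, against 13.6 and 15.7 CPM at 0 mM. Among the H3K9 demethylases, KDM3A had 14.7 CPM at 4 mM against 9.86 CPM at 0 mM (log2 0.55), and KDM4B had 19.0 CPM against 13.7 CPM (log2 0.45). JMJD1C, at 42.5 CPM against 35.5 CPM, was just under the ratio required.

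The ER and collagen hydroxylases summed to 188 CPM at 4 mM against 148 CPM at 0 mM, with 3 of 7 counted as higher. P4HA1 had 47.6 CPM at 4 mM against 29.0 CPM at 0 mM (log2 0.70). P4HA2 had 22.1 CPM against 13.6 CPM (log2 0.68). PLOD2 had 50.0 CPM against 37.8 CPM (log2 0.40). P4HA1 and PLOD2 were thus higher at 4 mM both here and in Epi-like cells, which came from other arms. EGLN1 was the HIF prolyl hydroxylase that differed, with 10.5 CPM at 4 mM against 6.31 CPM at 0 mM (log2 0.69), while EGLN3 had 36.8 CPM against 34.9 CPM and EGLN2 27.3 CPM against 27.2 CPM.

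The 3 members lower at 4 mM were ALKBH3, a nucleic acid demethylase known for repair of alkylated bases (5.23 CPM against 7.67 CPM at 0 mM, log2 −0.51), FTO (7.60 CPM against 9.97 CPM, log2 −0.37) and RIOX1 (11.7 CPM against 14.6 CPM, log2 −0.31). ALKBH5 had 36.7 CPM at 4 mM and a log2 ratio of 0.03. The H3K36 and H3K4 demethylases held none of the differences, KDM5B standing at 183 CPM at 4 mM and 202 CPM at 0 mM. With a required ratio of 1.5 the counts were 4 higher (KDM6B, P4HA1, EGLN1 and P4HA2) and 0 lower. The share of all genes at that ratio was not counted, so these counts have no background to be read against.

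**Figure D4:**
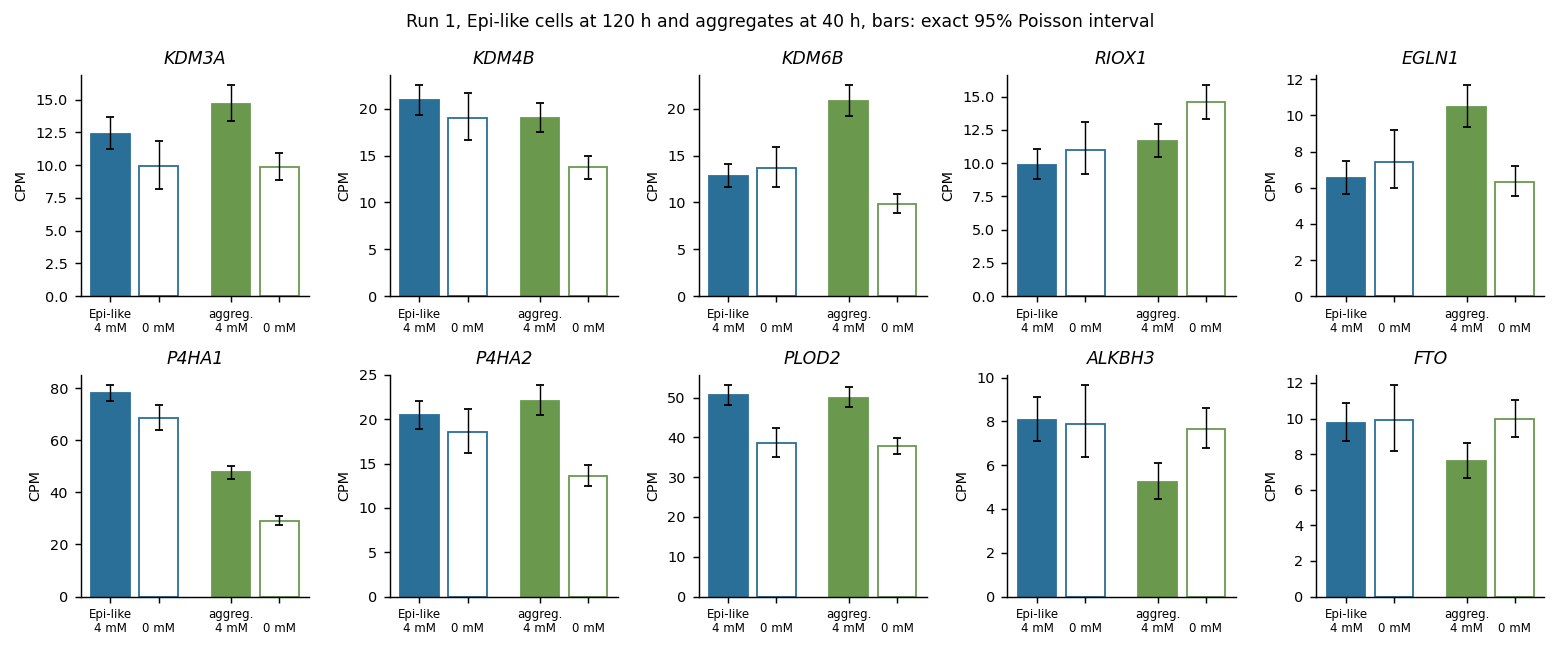
Level in CPM of the 10 members counted as different between doses in aggregates (green), beside Epi-like cells of run 1 (blue), with 1 arm per bar, filled for 4 mM and open for 0 mM, and exact Poisson 95% intervals for counting error. In aggregates KDM6B has 20.8 CPM at 4 mM and 9.86 CPM at 0 mM and P4HA1 has 47.6 and 29.0 CPM, while ALKBH3, FTO and RIOX1 are lower at 4 mM.

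Epi-like cells of 120 h blastoids were set against aggregates of 40 h within run 1, at each dose, with no replicate. A gene counted as different where the CPM ratio was at least 1.5 in the same direction at both doses with intervals apart. P4HA1 alone met this, with 77.9 CPM in Epi-like cells against 47.6 CPM in aggregates at 4 mM (log2 0.70) and 68.6 CPM against 29.0 CPM at 0 mM (log2 1.23), and 0 of 33 members were lower. Of 13360 genes, 6.16% met the rule (3.45% higher and 2.71% lower). The direction of KDM6B depended on the dose, at 12.8 CPM in Epi-like cells against 20.8 CPM in aggregates at 4 mM and 13.6 CPM against 9.86 CPM at 0 mM, and EGLN1 likewise had 6.52 CPM against 10.5 CPM and 7.45 CPM against 6.31 CPM. Age, medium and selection of single-cavity structures cannot be told apart in this comparison, and the Epi-like and aggregate arms are also those of the dose comparisons.

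KDM5B had the highest CPM of its role group in every arm, at 128 to 207 CPM, and KDM8, an arginyl hydroxylase, was at most 1.24 CPM. OGFOD1 stood at 33.2 to 36.2 CPM in Epi-like arms, at 33.4 and 33.7 CPM in aggregates at 4 mM and 0 mM, and at 31.0 and 31.8 CPM at 4 mM and 13.1 and 31.2 CPM at 0 mM in TE-like cells. Members were not compared in level with each other beyond this.

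HIF and its targets are the pathway in which the EGLN enzymes and HIF1AN act, and a list of 26 genes chosen with earlier results known was counted for each comparison. In TE-like against Epi-like cells, 12 of 25 tested genes were higher and 4 lower, 64.0% against 49.0% of all genes. EPAS1, which encodes HIF-2α, had 10.5 and 5.42 CPM at 4 mM and 6.57 and 2.68 CPM at 0 mM in TE-like cells, against 0.17 to 0.28 CPM in Epi-like arms (log2 4.80 ± 0.47; edgeR adjusted p = 3.08e-07). HIF1A itself was not called (log2 0.02), and of the targets ADM (log2 3.49), SLC2A3 (3.30) and SLC2A1 (1.71) were higher and PDK1 (−1.27) was lower. In the dose comparison of Epi-like cells, 7 of 26 were higher, DDIT4 (log2 0.96), PFKFB4 (0.54) and LDHA (0.43) among them, and ADM (−0.80) and HILPDA (−0.47) were lower, 34.6% in all against 8.69% of all genes. In TE-like cells, 2 of 22 were higher at 4 mM, LDHA (0.52) and DDIT4 (0.72), 9.09% against 1.44%. In aggregates, 10 of 24 were higher at 4 mM and 0 lower, led by ADM (log2 1.42) and DDIT4 (0.80), 41.7% against 19.4% of all genes and without a test. The list's median log2 value was 0.30 between the classes, 0.08 for the dose in Epi-like cells, 0.26 in TE-like cells and 0.23 in aggregates, beside −0.04, −0.01, −0.00 and 0.00 for all genes.

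The TET enzymes, which oxidize 5-methylcytosine with αKG, differed between the classes in both directions. TET2 had 111 and 117 CPM at 4 mM and 160 and 119 CPM at 0 mM in TE-like cells, against 8.96 and 13.6 CPM at 4 mM and 14.8 and 18.3 CPM at 0 mM in Epi-like cells (log2 3.38 ± 0.13; edgeR adjusted p = 2.50e-12). TET3 was also higher in TE-like cells (log2 1.34) and TET1 lower (−0.67). With dose, TET2 was lower in Epi-like cells at 4 mM (log2 −0.51 ± 0.09; edgeR adjusted p = 2.70e-04), and in aggregates it had 6.01 CPM at 4 mM against 19.3 CPM at 0 mM. No TET gene was called for the dose in TE-like cells.

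Other αKG dioxygenases outside the 33, such as KDM6A and PHYH, were called lower in 7 and higher in 1 of 21 tested genes in TE-like against Epi-like cells, in 0 of 22 for the dose in Epi-like cells and in 0 of 12 in TE-like cells. The share between the classes was 38.1%, against 49.0% of all genes. PHYH, the peroxisomal phytanoyl-CoA hydroxylase, was lower in TE-like cells (log2 −1.96) and was the 1 of 20 counted as higher at 4 mM in aggregates (log2 0.42). For the dose the shares were 0% in Epi-like cells, 0% in TE-like cells and 5.0% in aggregates, beside 8.69%, 1.44% and 19.4% of all genes. Collagens and their processing genes had 7 lower and 1 higher of 16 between the classes, a share of 50.0% close to the 49.0% of all genes, led by COL1A2 (log2 −4.35), with the collagen chaperone gene SERPINH1 at log2 −1.65. With dose this list had 1 higher of 21 in Epi-like cells (COL5A1), 1 lower of 9 in TE-like cells (COL6A1) and 5 higher and 3 lower of 17 in aggregates. These shares were 4.76%, 11.1% and 47.1%, beside 8.69%, 1.44% and 19.4% of all genes.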

How the data were processed

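Single-cell RNA libraries of hashtagged cultures were captured in 2 runs, and the deposited files hold raw UMI counts per gene or hashtag and barcode for each run. Per the submitters' processing notes, the authors used Cell Ranger 6.1.2, bcl2fastq 2.20.0.422 and Seurat 4.3.0 with GRCh38. The whole-number counts had not been normalized. GEO's labels describe the pools only. The culture and dose behind each tag come from the deposited hashtag reference, matched to the counts by antibody number.

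Barcodes were assigned with HTODemux (Seurat 5.3.0, quantile 0.99), which left 6012 singlets of 9431 barcodes in run 1 and 10400 of 15133 in run 2. Hashtag doublets (512 and 1142) and negatives (2907 and 3591) were dropped, and no other doublet caller was run. Cells needed at most 15% mitochondrial UMIs and at least 7000 UMIs in run 1 or 5000 in run 2. The runs shared 28 barcode sequences, 8 of them among kept cells.

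Summed UMIs of each class in each arm entered edgeR 4.0.16 (TMM, filterByExpr, quasi-likelihood) in R 4.3.3, with run as a term in dose fits and arm in class fits, and Benjamini-Hochberg adjustment over all genes. Run is the capture that arms share per the labels and serves as the replicate block. The fits were first tested on simulated data. The SE of an edgeR log2 fold change is its absolute value divided by the square root of the F statistic of the quasi-likelihood test. CPM are counts divided by the total of the sum. Comparisons with 1 arm per group used exact Poisson 95% intervals. Members past a threshold are named with their values, and of the others those with the highest CPM in their role group, or with opposite signs in the runs. The members and gene lists were chosen with earlier results of these data known. Alternatives were DESeq2 1.42.0, RLE factors, no low-count filter, all singlets, the top hashtag (at least 80% of hashtag UMIs), strict classes (2-fold), no run or arm term, leaving out each arm, other folds and, chosen after seeing the data, plain totals. Member coordinates are from GENCODE on GRCh38, and promoter sequences from RefSeq on GRCh38.p14.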

Additional observations from a re-analysis of the deposited data

How the results depend on the processing

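In Epi-like cells the dose calls of 5 members higher and 1 lower became 1 and 0 with DESeq2 and 0 and 0 with no replicate block (run left out of the model). The lower count was 0 with no filter on low counts. With all singlets or with the top hashtag the counts were 6 higher and 2 lower. Leaving out each arm in turn, in fits that omit run because no residual degree of freedom is left with it, gave 0 to 0 higher and 0 to 0 lower. In TE-like against Epi-like cells the higher count was 1 with plain totals, 3 with all singlets or with no replicate block (arm left out of the model), where KDM6B was added, and 1 to 2 over the left-out arms, and the lower count was 11 to 17. Over the left-out arms all genes had 1979 to 2913 higher and 2353 to 3358 lower calls. In aggregates a ratio of 1.5 gave 4 higher and 0 lower, and for Epi-like cells against aggregates a ratio of 2 gave 0 higher. The shares of all genes at these ratios were not counted. Of the single members, EGLN3 lost its dose call without the low-count filter (edgeR adjusted p = 0.0557), and EGLN2 lost its call with the top hashtag (0.0568) and plain totals (0.0614). Between the classes, FTO was lost with the top hashtag (0.0729) and P4HTM without the 0 mM arm of run 2 (0.0521). With that arm left out, KDM3A passed as lower (0.0245). The cause was not tested. No called member reversed its direction, while KDM5A and HIF1AN, not called between the classes, changed sign with plain totals. No member was called for the dose in TE-like cells or for the interaction under any alternative. Over all genes, the 885 higher and 593 lower dose calls in Epi-like cells were 162 and 56 with DESeq2, 15 and 1 without run, and 1280 and 932 with the top hashtag. The 59 and 72 calls in TE-like cells were 12 and 18 with DESeq2 and 21 and 16 without run, and the 50 and 52 interaction calls were 10 and 18 with DESeq2. The 1 residual degree of freedom of the dose fits and the few TE-like cells limit the precision.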

Other observations

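Enzymes that make or use αKG, a list of 19 genes, had 3 higher and 6 lower in TE-like against Epi-like cells by edgeR's quasi-likelihood test, 47.4% against 49.0% of all genes. BCAT2, the mitochondrial branched-chain aminotransferase, was the most changed (log2 4.52), with BCAT1 (0.60) and IDH2 (0.69) also higher and GLUD1 (−0.92) and OAT (−0.46) among the lower genes. In the dose comparison of Epi-like cells 4 of 19 were higher at 4 mM, BCAT1 (log2 0.51) and PSAT1 (0.35) among them, and 0 were lower, 21.1% against 8.69% of all genes. In TE-like cells 2 of 18 were lower at 4 mM, GPT2 (log2 −0.93) and OAT (−0.82), 11.1% against 1.44% of all genes, and both also passed the interaction test in the same direction. In aggregates, without a test, IDH2 (log2 0.67), IDH1 (0.42) and GLUD1 (0.36) were higher at 4 mM, and 3 of 18 were lower, OAT (−0.38) among them, 33.3% in all against 19.4% of all genes.

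Histone lysine methyltransferases, which write the marks that the KDM enzymes erase, had 7 higher and 6 lower of 26 genes in TE-like against Epi-like cells, 50.0% against 49.0% of all genes, with SETD7 (log2 1.66) the highest and NSD1 (−0.89) the lowest of the called genes. For the dose, 4 of 26 were higher in Epi-like cells, NSD2 (log2 0.40), KMT2A (0.35), KMT5A (0.34) and EZH2 (0.23), 0 of 23 in TE-like cells, and 1 higher (SMYD2, 0.36) and 2 lower (NSD2, −0.62, and EHMT2, −0.27) in aggregates. These shares were 15.4%, 0% and 11.5%, beside 8.69%, 1.44% and 19.4% of all genes. Of the FAD-dependent demethylases, which do not use αKG, KDM1A was higher in TE-like cells (log2 0.52). The writers and readers of m6A had 5 higher and 1 lower of 12 between the classes, 50.0% against 49.0% of all genes, led by YTHDF1 (log2 0.93). Both m6A erasers above were lower, with the FTO call kept in 7 of 12 alternatives. For the dose WTAP alone was called in Epi-like cells (log2 0.22), 0 of 12 in TE-like cells, and YTHDC2 was lower in aggregates (−0.28). The shares of this list were 8.33%, 0% and 8.33%, beside 8.69%, 1.44% and 19.4% of all genes.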
